A study of Mus musculus with 95 samples.

Results

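Haematopoietic stem cells (HSC) in the early weeks after transplantation were set against HSC of untreated mice. RNA was sequenced in bulk from sorted cells. The early HSC were 6 libraries, 3 from 3 weeks and 3 from 4 weeks after transplant, pooled as 1 group. Their recipients had been irradiated with 900 cGy and given 8000 donor LSK cells, which are marrow cells without lineage markers that carry KIT and SCA-1. The steady-state HSC were 7 libraries from untreated mice, replicates 2 to 8 of that group. Both groups were labelled B6.SJL mice of 8 to 12 weeks of age, with no transgene or mutation named, and both were sorted from marrow as live lineage-negative, KIT+ SCA-1+ CD48- CD150+ cells. Steady-state replicate 1 was left out because its counts lay close to those of a progenitor library (HPC-2 at 13 weeks, chi-square per degree of freedom 4.5), whereas no pair that includes one of the 13 libraries came below 37.3. The 13 libraries belong to a series of 95, which also holds 18 HSC libraries of weeks 5 to 16 and the progenitor populations HPC-1 and HPC-2. The labels give the same sort gate for all 3 populations, do not say whether donor and host cells were told apart in the sort, and do not say that libraries came from separate animals, so a p-value here measures only the spread between these libraries.

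HSC sit at the top of the blood system and are mostly out of the cell cycle in unperturbed marrow. After irradiation and transplantation a small number of them must divide to rebuild both the stem cell pool and the mature blood lineages. Entry into the cycle is governed by E2F transcription factors, which bind DNA together with a DP partner and control genes of DNA replication and nucleotide supply, and growth before division draws on MYC targets for ribosome assembly and protein folding. Dormant HSC are known for a set of surface, adhesion and transcription factor genes and for low output of these growth programmes.

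Of the 6 genes that rose in early HSC, Tfdp1 encodes DP1, the dimerisation partner of E2F, and Cdca7 encodes a partner of the chromatin remodeller HELLS that is known as an E2F and MYC target. Their promoters are shown together with that of Mcm6, a subunit of the replicative helicase, as examples that hold an 8-base E2F-type match. Other genes described below do not hold one, among them the replication genes Rrm2 and Slbp. The E2F-type motifs searched were TTTCCCGC, TTTGGCGC and TTTCGCGC on both strands, in the window from 250 bases before to 50 bases after the gene start (RefSeq, GRCm38.p6). An E-box, CACGTG, was searched in the same windows. The windows are chr2:72475969-72476268, plus strand, for Cdca7, chr8:13338501-13338800, plus strand, for Tfdp1 (the first of 2 listed starts), and chr1:128359656-128359955, minus strand, for Mcm6, each printed 5′ to 3′ on the gene's strand. E2F-type matches are in capitals, and in Mcm6 the first capital run is made of a pair of overlapping matches on opposite strands.
Cdca7: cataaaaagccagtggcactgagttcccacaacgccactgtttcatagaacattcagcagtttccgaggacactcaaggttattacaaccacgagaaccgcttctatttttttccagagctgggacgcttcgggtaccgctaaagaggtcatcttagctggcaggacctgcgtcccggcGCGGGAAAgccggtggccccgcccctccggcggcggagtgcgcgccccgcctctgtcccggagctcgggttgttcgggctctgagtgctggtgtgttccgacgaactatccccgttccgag
Tfdp1: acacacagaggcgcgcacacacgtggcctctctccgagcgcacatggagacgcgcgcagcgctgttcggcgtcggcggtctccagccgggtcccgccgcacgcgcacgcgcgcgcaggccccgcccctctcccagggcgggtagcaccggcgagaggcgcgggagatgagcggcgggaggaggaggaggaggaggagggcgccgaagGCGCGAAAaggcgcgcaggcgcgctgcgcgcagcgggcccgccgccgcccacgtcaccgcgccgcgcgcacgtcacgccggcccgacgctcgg
Mcm6: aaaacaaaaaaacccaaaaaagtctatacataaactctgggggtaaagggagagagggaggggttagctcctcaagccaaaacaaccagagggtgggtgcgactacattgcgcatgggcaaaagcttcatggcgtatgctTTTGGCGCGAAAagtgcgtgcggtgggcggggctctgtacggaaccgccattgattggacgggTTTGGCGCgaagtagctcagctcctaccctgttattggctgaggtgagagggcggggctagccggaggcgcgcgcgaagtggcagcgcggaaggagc
The E2F-type match in Cdca7 begins 71 bases before the gene start and that in Tfdp1 43 bases before it. Of all 27025 promoters, 1.91% held an E2F-type match, as did 4.06% of the 8007 promoters found for genes tested here. Among 39 promoters found for the 46 genes of a DNA replication list, 12 held one (30.8%), and among 38 found for the 46 genes of a mitosis list, 2 did (5.26%). Of the other genes that rose, Plac8, Atp5b, Rap1b and Ldha had no E2F-type match, which says only that these letters are not in the window. The E-box was in 7.24% of all promoters and 10.6% of those of genes tested. It was in 15.4% of the replication list, 7.89% of the mitosis list, 22.7% of a nucleotide synthesis list and 17.6% of a MYC and ribosome biogenesis list. Among the 6 genes that rose, Tfdp1 held 1 E-box and Ldha 2. Of 12 promoters found for the 23 genes that fell, 3 held an E-box (25.0%), that of Pdzk1ip1 among them, and 1 an E2F-type match (8.33%).

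Early libraries held 5936384 to 7908388 counts, and steady-state libraries 4552549 to 6085790 (exact permutation test, two-sided, p = 0.00117). The number of genes with a count ranged from 10741 to 13685 in early HSC and from 7779 to 14940 in steady-state HSC, where replicates 3 and 8 were the only libraries under 10000. Levels are given as CPM (counts scaled to a library total of 1000000), and fitted differences as log2 changes, early over steady state. The plot of library measures shows these values beside the mitochondrial and ribosomal shares described further on.

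**Figure D1:**
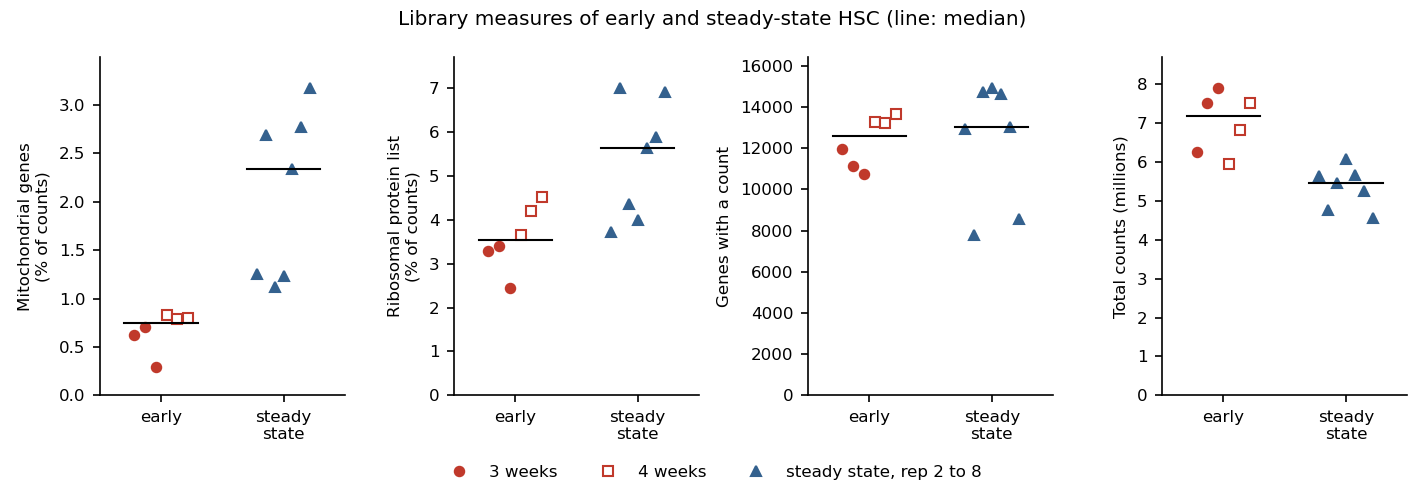
Share of counts on mitochondrial genes and on the ribosomal protein list (percent), number of genes with a count, and total counts (in units of 1000000), 1 point per library, with early HSC (3 and 4 weeks) left of steady-state HSC and a line at the median. The mitochondrial share lies between 0.294% and 0.826% in the early libraries, all below the 1.12% to 3.18% of the steady-state libraries, while genes with a count overlap.

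Both groups carried the transcripts of the sort. Slamf1, which encodes CD150, was at 69.6 to 194 CPM (median 121) in early HSC, against 8.67 to 171 CPM (median 83.8) in steady-state HSC. Cd48, the marker the gate excludes, was at 0 to 65.6 CPM (median 20.9) in early HSC, against 0 to 60.2 CPM (median 1.05) in steady-state HSC, while the lowest of the HPC-2 libraries at 3 and 4 weeks had 257.6 CPM. Ly6a, which encodes SCA-1, was at 183 to 480.2 CPM (median 252.5) in early HSC, against 226.5 to 796 CPM (median 352) in steady-state HSC. Kit, the stem cell factor receptor, was at 6.25 to 164 CPM (median 76.4) in early HSC, against 122 to 517 CPM (median 153) in steady-state HSC, and its lower level in early HSC did not pass the test (log2 change -1.61, adjusted p = 0.265). Cd3e, a T cell gene, and Ms4a1 and Cd79a, B cell genes, were at 0 in all 13 libraries. Of the HSC marker genes Hlf, Mecom, Procr, Hoxb5 and Ctnnal1, every early library held counts for each. Fgd5, another HSC marker, had counts in 3 of 6 early libraries.

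Over the 10540 genes tested, the Spearman correlation of the early libraries with the mean of HPC-2 at 3 and 4 weeks was 0.802 to 0.875, and with the mean of steady-state HSC 0.682 to 0.836. It was higher with HPC-2 in each of the 6 early libraries, and HPC-1 at 3 and 4 weeks gave a like range, 0.802 to 0.877. With steady-state HPC-2 and HPC-1 the ranges were 0.771 to 0.839 and 0.711 to 0.868, and each early library correlated least with steady-state HSC among these means. With the mean of HSC of weeks 5 to 16 the correlation was 0.708 to 0.88. The 7 steady-state libraries had 0.545 to 0.818 with HPC-2 of weeks 3 and 4 and 0.617 to 0.859 with steady-state HSC, where replicates 3 and 8 gave the lowest values of each. Each steady-state library, too, correlated more with HSC of weeks 5 to 16 (0.636 to 0.876) than with its own group. Steady-state replicates 2 and 5 also had higher values with steady-state HPC-1 (0.846 and 0.859) than with steady-state HSC (0.81 and 0.847). Libraries entered their own group's mean only where they were not the library compared, and the points share depth and gene composition, so these values are a description.

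The comparison of early with steady-state HSC called 29 of 10540 genes (0.275%) at an adjusted p under 0.05 (edgeR quasi-likelihood F test, Benjamini-Hochberg), 6 higher (0.0569%) and 23 lower (0.218%). Called means called by edgeR unless another tool is named. DESeq2 called 102 genes higher (0.968%) and 208 lower (1.97%), and limma voom with sample weights 198 higher (1.88%) and 215 lower (2.04%), each holding the 29. At an unadjusted p under 0.05 by edgeR there were 357 higher (3.39%) and 626 lower (5.94%). These shares of all genes, by tool and direction, stand beside the counts of list members given below. The median log2 change of all genes tested was 0.00613, and 50.2% were above 0. In 27 of the 29 called genes the libraries of both groups did not overlap, and over all genes tested 156 (1.48%) lay apart on the higher and 93 (0.882%) on the lower side. The count rests on few libraries. It was 0 without 3-week replicate 1, 5 and 10 without 3-week replicates 2 and 3, 3, 10 and 6 without 4-week replicates 1, 2 and 3, and 2 without either steady-state replicate 6 or 7. Of 26 alternatives run, Ifitm1 and Zfp36l2 lost their call in 5 each and Gng11 in 18, with no change of sign among the 26 called genes followed. Without steady-state replicates 3 and 8, Plac8, Gng11, Rps27, mt-Nd4, mt-Nd5 and mt-Nd6 missed the threshold (adjusted p = 0.0518, 0.0518, 0.0693, 0.0538, 0.0637 and 0.0565). In a bulk library, fewer cells that express a gene and less RNA per cell cannot be told apart.

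The 6 genes that rose have different functions. Plac8, a cysteine-rich protein known from myeloid and multipotent progenitors, was at 362 to 705 CPM (median 587) in early HSC, against 47.4 to 294.5 CPM (median 155) in steady-state HSC, a 3.51-fold higher level in the fit (log2 change 1.81, SE 0.347, adjusted p = 0.0366). Tfdp1 was at 355 to 652 CPM (median 546) in early HSC, against 68 to 263 CPM (median 159) in steady-state HSC (log2 change 1.65, SE 0.307, adjusted p = 0.0334). Cdca7 was at 481 to 1088 CPM (median 602) in early HSC, against 103 to 341 CPM (median 222.5) in steady-state HSC (log2 change 1.58, SE 0.277, adjusted p = 0.0252). In all of these genes the lowest early library stood above the highest steady-state library. Atp5b, the catalytic beta subunit of mitochondrial ATP synthase, was at 948 to 2148 CPM (median 1174) in early HSC, against 262 to 753 CPM (median 407) in steady-state HSC (log2 change 1.41, SE 0.245, adjusted p = 0.0252). Rap1b, a small GTPase that activates integrins, was at 1648 to 3285 CPM (median 1987) in early HSC, against 730.2 to 1237 CPM (median 897) in steady-state HSC (log2 change 1.17, SE 0.195, adjusted p = 0.0246). Ldha, which converts pyruvate to lactate at the end of glycolysis, was at 2099 to 2531 CPM (median 2316) in early HSC, against 823 to 1534 CPM (median 1304) in steady-state HSC, with the smallest change of the called genes (log2 change 0.85, SE 0.148, adjusted p = 0.0252). The plot of called genes shows every library of these and of 6 genes that fell.

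**Figure D2:**
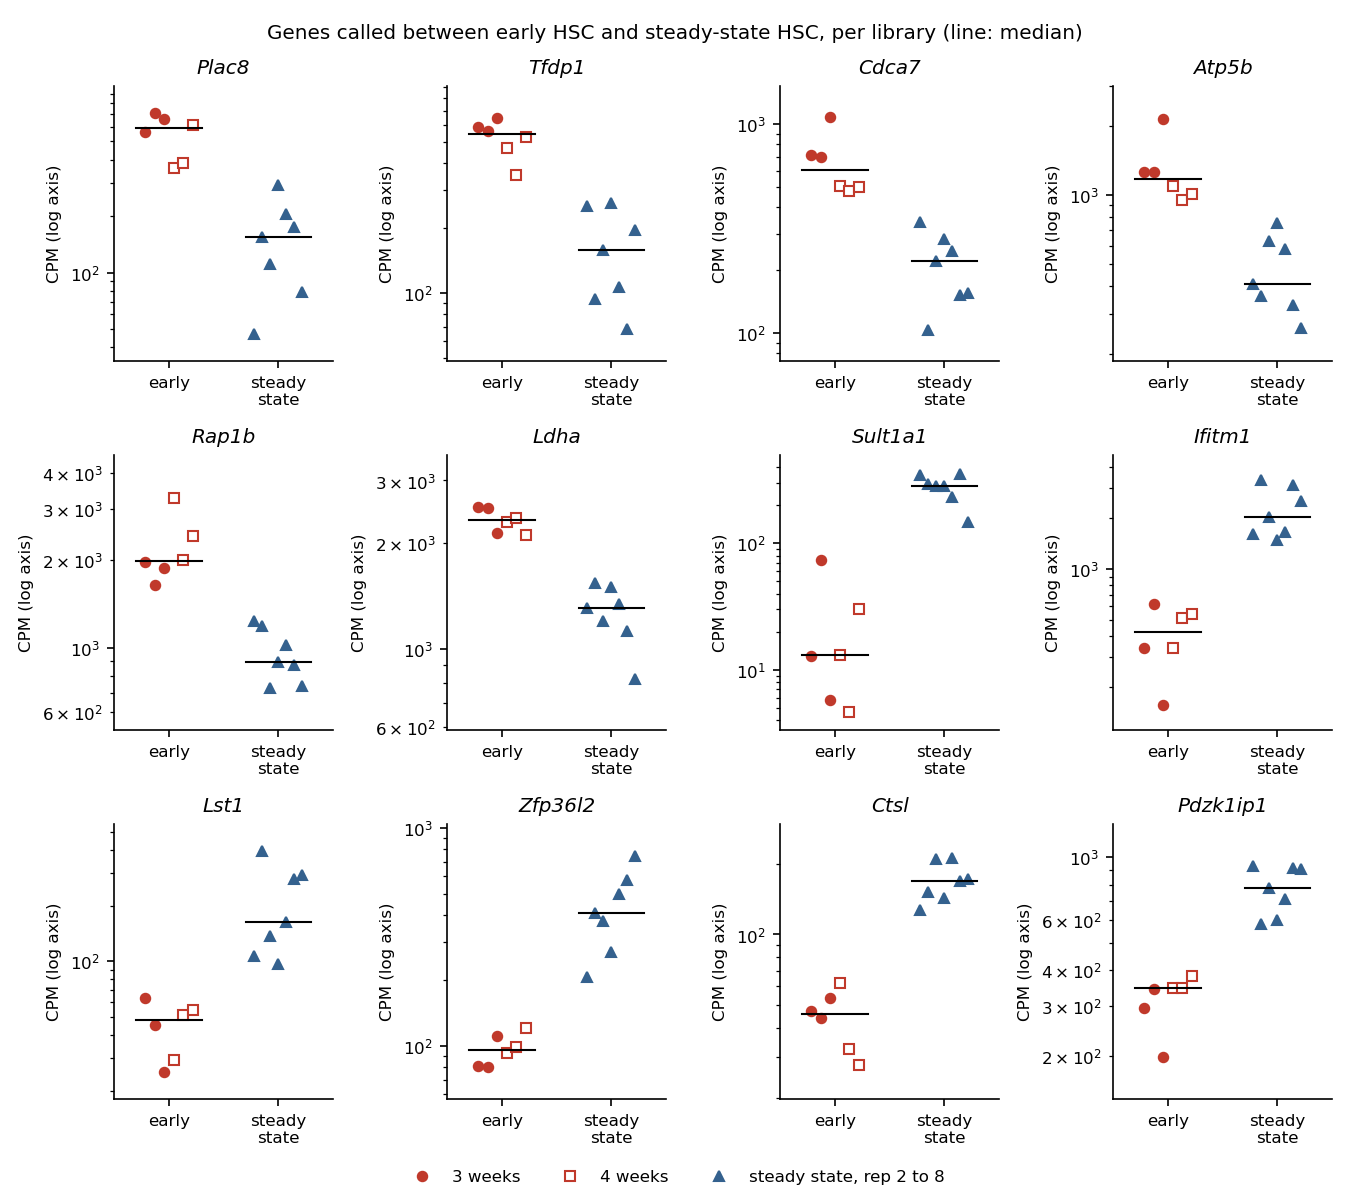
Level (CPM, log axis) of the 6 genes called higher and of 6 of the genes called lower, 1 panel per gene and 1 point per library, with early HSC (filled circles 3 weeks, open squares 4 weeks) left of steady-state HSC (triangles) and a line at the median. In each of the 12 panels the groups do not overlap, and Plac8 has its lowest early library at 362 CPM and its highest steady-state library at 294.5 CPM.

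The genes that fell included several that mark resting HSC. Ifitm1, an interferon-induced membrane protein abundant in HSC, was at 156 to 617 CPM (median 426) in early HSC, against 1488 to 3375 CPM (median 2029) in steady-state HSC, 5.51-fold lower in the fit (log2 change -2.46, SE 0.321, adjusted p = 0.00806). Sult1a1, a sulfotransferase, was at 4.69 to 73.4 CPM (median 13.1) in early HSC, against 146 to 355 CPM (median 284) in steady-state HSC, 12.2-fold lower (log2 change -3.60, SE 0.612, adjusted p = 0.0252). Pdzk1ip1, a small membrane protein, was at 198 to 382 CPM (median 345) in early HSC, against 581 to 934.5 CPM (median 778) in steady-state HSC (log2 change -1.31, SE 0.212, adjusted p = 0.0237). All of the early libraries of these genes lay below all steady-state libraries. The genes belong to an HSC identity list of which 34 members were tested. That list was chosen with earlier results of these data known, so its counts are a description and not independent support. Of the 34 members, 3 fell (0.218% of all genes did) and none rose. DESeq2 called 8 lower (1.97% of all genes were) and limma 9 (2.04%), with none higher by either tool. By edgeR 11 had an unadjusted p under 0.05 (5.94% of all genes did on the lower side), all lower. A negative log2 change was seen in 25 (49.8% of all genes had one), and the list's median was -0.66. In 5 of the 34 members the early libraries all lay below the steady-state ones (0.882% of all genes did). Over 26 alternatives the list's median lay between -1.08 and -0.16.

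Other members of the identity list were lower without passing the edgeR test, while 9 of the 34 tested had a positive log2 change, up to 2.07. Myct1, an endothelial and stem cell gene, was at 44.9 to 220.1 CPM (median 152) in early HSC, against 295 to 497 CPM (median 375) in steady-state HSC (log2 change -1.43, adjusted p = 0.0757), with no overlap. Hlf, a transcription factor that marks HSC, was at 19.9 to 79.3 CPM (median 61.8) in early HSC, against 35.4 to 415 CPM (median 201) in steady-state HSC (log2 change -2.01, adjusted p = 0.126). Only steady-state replicate 3, 1 of the libraries with few genes, came within the early range of Hlf. Fgd5, an exchange factor used to mark HSC, was at 0 to 4.64 CPM (median 0.133) in early HSC, against 9.95 to 106.5 CPM (median 38.6) in steady-state HSC (adjusted p = 0.166), so every early library held less than every steady-state one. Procr, the protein C receptor of HSC, was at 16.3 to 85.2 CPM (median 30.3) in early HSC, against 6.5 to 235.5 CPM (median 134) in steady-state HSC (adjusted p = 0.333). Angpt1, a TIE2 ligand, was at 264 to 562 CPM (median 478) in early HSC, against 461 to 1255 CPM (median 613) in steady-state HSC (adjusted p = 0.359). Over 26 alternatives, Myct1 passed the threshold in 6, Hlf in 4, Fgd5 in 2, Procr in 1 and Angpt1 in 0. The HSC marker Ctnnal1 stood on the other side, at 0.931 to 354 CPM (median 90.6) in early HSC, against 0 to 52.5 CPM (median 32.3) in steady-state HSC. The marker Hoxb5 was at 10.1 to 24.9 CPM (median 17.3) in early HSC, against 0 to 56.5 CPM (median 22.2) in steady-state HSC.

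The other genes that fell belong to several functions. Zfp36l2, which binds AU-rich elements and promotes decay of its target messenger RNAs, was at 79.8 to 121 CPM (median 96) in early HSC, against 207 to 747 CPM (median 409) in steady-state HSC (log2 change -2.21, SE 0.304, adjusted p = 0.00807). Ctsl, the lysosomal protease cathepsin L, was at 27.8 to 61.8 CPM (median 45.6) in early HSC, against 128 to 212 CPM (median 169.8) in steady-state HSC (log2 change -1.97, SE 0.352, adjusted p = 0.0269). Cd63, a tetraspanin of late endosomes, was at 309.7 to 625 CPM (median 487) in early HSC, against 718 to 1288 CPM (median 1040) in steady-state HSC (log2 change -1.18, SE 0.227, adjusted p = 0.0366). The groups were apart in each of them. Dnajb9, a cochaperone of BiP in the endoplasmic reticulum, was at 44.4 to 55.4 CPM (median 47.7) in early HSC, against 95.3 to 386 CPM (median 153) in steady-state HSC (log2 change -1.91, SE 0.387, adjusted p = 0.0486). Its early libraries spanned only a narrow range. Lst1, a leukocyte transcript, was at 25.3 to 63.7 CPM (median 48.3) in early HSC, against 97.3 to 395 CPM (median 162) in steady-state HSC (log2 change -2.27, SE 0.441, adjusted p = 0.0366). Malat1, a long noncoding RNA retained in the nucleus, was at 134 to 412 CPM (median 252) in early HSC, against 454 to 1589 CPM (median 809.7) in steady-state HSC (log2 change -1.82, SE 0.341, adjusted p = 0.0334).

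Slc50a1, a sugar transporter, Gpr171, a G protein-coupled receptor, and Gng11, a G protein gamma subunit, had log2 changes of -1.53, -1.50 and -1.39, with adjusted p of 0.0246, 0.0366 and 0.0366. Lax1, a membrane adaptor of lymphocytes, had no count in any early library and 0 to 50.5 CPM (median 34.3) in steady-state HSC, where replicate 8 also had none. Against a floor of 3 counts over the pooled early libraries (0.0715 CPM), it was at least 417-fold lower, a bound that covers counting error only (adjusted p = 0.0476). The transcript 4921504A21Rik likewise had no early count, against 4.62 to 97.5 CPM (median 16.1) in steady-state HSC. B4galt6, a lactosylceramide synthase, had a count in 1 early library (0.133 CPM), against 1.1 to 68.8 CPM (median 16.8) in steady-state HSC. The last of the called genes outside the mitochondrial and ribosomal ones, 2310001H17Rik, was at 46.1 to 91.6 CPM (median 69) in early HSC, against 131 to 725 CPM (median 213) in steady-state HSC (adjusted p = 0.0366).

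Transcripts of the mitochondrial genome were lower in early HSC. They took 0.294% to 0.826% of counts (median 0.749%) in early libraries, against 1.12% to 3.18% (median 2.34%) in steady-state libraries, with no overlap (exact permutation test, two-sided, p = 0.00233, where 0.000583 is the smallest these groups allow). Among 10 protein-coding mitochondrial genes tested, 4 fell (0.218% of all genes did), all had a negative log2 change and the median was -1.84. DESeq2 called 8 lower (1.97% of all genes were) and limma 4 (2.04%). The median was -0.96 with a length trend taken out, and mt-Nd4, mt-Nd5 and mt-Nd6 were not called without steady-state replicates 3 and 8. Mt-Nd4, a complex I subunit, was at 101 to 343 CPM (median 308) in early HSC, against 497 to 1641 CPM (median 1204) in steady-state HSC (log2 change -1.96, SE 0.357, adjusted p = 0.0304). The complex I genes mt-Nd2, mt-Nd5 and mt-Nd6 had log2 changes of -2.22, -1.77 and -2.37. Mt-Co1 of complex IV and mt-Cytb of complex III were apart but missed the threshold (log2 changes -1.32 and -1.41, adjusted p = 0.0707 and 0.0754). The ribosomal RNAs mt-Rnr1 and mt-Rnr2, outside that list, fell by 2.56 and 2.30 on the log2 scale (adjusted p = 0.0178 and 0.0145). Nuclear copies of mitochondrial genes exist, and how reads shared with them were counted is not given in the sources used here. Early HSC at 3 weeks, replicate 3 had the lowest share of all.

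DNA replication genes leaned higher in early HSC, although no single gene passed the edgeR test. Of 46 replication genes, all 46 had a positive log2 change, with a median of 1.26, where 50.2% of all genes were above 0 with a median of 0.00613. None was called by edgeR, 7 were by DESeq2 (0.968% of all genes were called higher) and 12 by limma (1.88%), all higher. By edgeR 20 had an unadjusted p under 0.05 (3.39% of all genes did on the higher side) and 7 had all early libraries above all steady-state ones (1.48% of all genes did). Mcm4, a helicase subunit, was at 78.4 to 616 CPM (median 219) in early HSC, against 20.9 to 114 CPM (median 56.1) in steady-state HSC (log2 change 2.09, SE 0.451, adjusted p = 0.0707). Rrm2, the regulated subunit of ribonucleotide reductase, was at 340.1 to 564 CPM (median 406) in early HSC, against 18.9 to 339 CPM (median 123) in steady-state HSC (log2 change 1.68, SE 0.461, adjusted p = 0.173). Slbp, which binds the stem-loop of histone messenger RNAs, was at 539 to 779.8 CPM (median 626) in early HSC, against 149 to 504 CPM (median 343) in steady-state HSC (log2 change 0.96, SE 0.273, adjusted p = 0.182). The libraries were apart for Rrm2 and Slbp and overlapped for Mcm4. Mcm6 was at 308 to 1379 CPM (median 587.5) in early HSC, against 18.2 to 329.5 CPM (median 199) in steady-state HSC (adjusted p = 0.192), and Pcna, the replication clamp, at 434 to 801 CPM (median 635) in early HSC, against 204 to 599.8 CPM (median 403) in steady-state HSC (adjusted p = 0.418). Summed over the list, the level was 8411 to 12790 CPM (median 9020) in early HSC, against 2570 to 5637 CPM (median 4595) in steady-state HSC, and the groups did not overlap.

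Mitosis genes leaned the same way, with overlap between libraries in each gene. Of 46 tested, 45 had a positive log2 change with a median of 1.15. None was called by edgeR, 2 were by DESeq2 (0.968% of all genes were called higher) and 16 by limma (1.88%), all higher. By edgeR 12 had an unadjusted p under 0.05 (3.39% of all genes did on the higher side), and none was apart. Cdca8, the borealin subunit of the chromosomal passenger complex, was at 198 to 375 CPM (median 341) in early HSC, against 9.72 to 237 CPM (median 68.4) in steady-state HSC (log2 change 1.81, adjusted p = 0.184). Cenpa, the centromeric histone, was at 221 to 468 CPM (median 409) in early HSC, against 66.1 to 294 CPM (median 122) in steady-state HSC (adjusted p = 0.259). Stmn1, a microtubule regulator, was at 1178 to 1527 CPM (median 1325) in early HSC, against 749.7 to 1458 CPM (median 892) in steady-state HSC (adjusted p = 0.45). Steady-state libraries reached into the early range for each of them.

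Nucleotide and chromatin supply showed the same lean. Of 26 genes of nucleotide synthesis 23 were positive (median 0.83), with 7 higher at an unadjusted p under 0.05 by edgeR (3.39% of all genes). None was called by edgeR or DESeq2 and 2 were by limma (1.88% of all genes were called higher). Tyms, thymidylate synthase, was at 313 to 612 CPM (median 374) in early HSC, against 110 to 373 CPM (median 202) in steady-state HSC (adjusted p = 0.225). Mthfd2, a mitochondrial folate enzyme, was at 20 to 74.4 CPM (median 48) in early HSC, against 0 to 16.1 CPM (median 9.06) in steady-state HSC, with no overlap (adjusted p = 0.467). Of 24 chromatin proteins of dividing cells 20 were positive (median 0.45) and none was called by edgeR. DESeq2 called 3 (0.968% of all genes were called higher) and limma 8 (1.88%), all higher. By edgeR 7 were higher (3.39% of all genes) and 1 lower (5.94%) at an unadjusted p under 0.05. Hmgb3, a DNA-bending protein of blood progenitors, was at 341 to 595 CPM (median 448) in early HSC, against 94.7 to 296 CPM (median 219) in steady-state HSC (adjusted p = 0.122). Anp32b, a histone chaperone, and Hmgb1, a relative of Hmgb3, were also apart (log2 changes 0.61 and 0.59, adjusted p = 0.15 and 0.184).

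**Figure D3:**
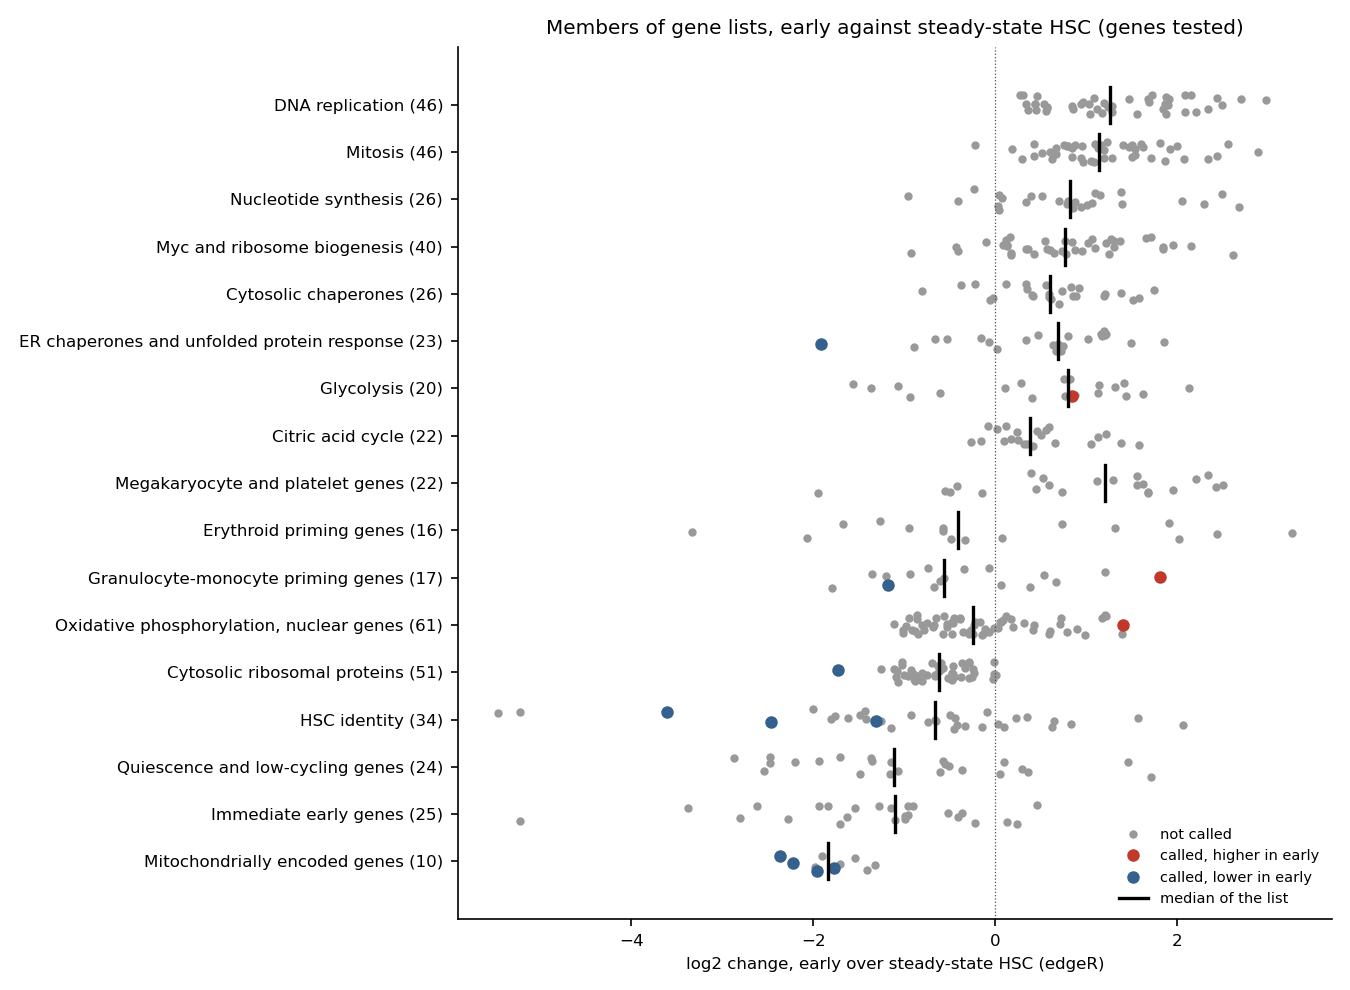
Log2 change, early over steady-state HSC, of the tested members of 17 gene lists, 1 point per gene, with called genes coloured and a bar at each list's median (number of genes tested in brackets). All 46 replication genes lie above 0 with a median of 1.26 and all 10 mitochondrially encoded genes below 0 with a median of -1.84, while few single genes were called.

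Genes for building ribosomes and folding proteins leaned higher. Of 40 MYC and ribosome biogenesis genes 36 were positive (median 0.77) and none was called by edgeR. DESeq2 called 2 (0.968% of all genes were called higher) and limma 4 (1.88%), all higher. By edgeR 8 were higher (3.39% of all genes) and 1 lower (5.94%) at an unadjusted p under 0.05. Ncl, nucleolin, was at 744 to 1473 CPM (median 917) in early HSC, against 247 to 662 CPM (median 415) in steady-state HSC, with no overlap and an adjusted p just over the threshold (log2 change 1.07, SE 0.218, adjusted p = 0.051). Nop56, a box C/D snoRNP core protein, was at 444 to 789 CPM (median 603) in early HSC, against 138 to 461.5 CPM (median 282) in steady-state HSC (adjusted p = 0.0707). Srm, spermidine synthase, was at 376 to 576 CPM (median 526) in early HSC, against 6.5 to 269 CPM (median 141) in steady-state HSC, apart as well (adjusted p = 0.229). Eif5a, a translation factor, was at 2391 to 2798 CPM (median 2476) in early HSC, against 984 to 2063 CPM (median 1524) in steady-state HSC, apart (adjusted p = 0.122), and 18 of its list of 27 translation factors were positive (median 0.20).

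Of 26 cytosolic chaperones 21 were positive (median 0.61) and none was called by edgeR. DESeq2 called 5 (0.968% of all genes were called higher) and limma 8 (1.88%), all higher. By edgeR 12 had an unadjusted p under 0.05 (3.39% of all genes did on the higher side), and 4 were apart (1.48% of all genes were). Cct7, a subunit of the CCT chaperonin, was at 679.9 to 1484 CPM (median 1043) in early HSC, against 223 to 754 CPM (median 436) in steady-state HSC (adjusted p = 0.0797). Ahsa1, which stimulates the ATPase of HSP90, was at 261 to 561 CPM (median 386) in early HSC, against 68 to 226 CPM (median 149) in steady-state HSC, apart (adjusted p = 0.102). Hspa8, the constitutive HSP70, was at 1693 to 4565 CPM (median 3203) in early HSC, against 636 to 3179 CPM (median 1333) in steady-state HSC (adjusted p = 0.322), overlapping widely. In the endoplasmic reticulum list 17 of 23 were positive (median 0.69), and Dnajb9, which fell, was the only call by edgeR. DESeq2 called 1 higher (0.968% of all genes) and 1 lower (1.97%), and limma 5 higher (1.88%) and 1 lower (2.04%). By edgeR 7 were higher (3.39% of all genes) and 1 lower (5.94%) at an unadjusted p under 0.05. Pdia3, a disulfide isomerase, was at 866.5 to 1440 CPM (median 1115) in early HSC, against 159 to 928 CPM (median 470.3) in steady-state HSC (adjusted p = 0.184). Of 31 proteasome genes 22 were positive (median 0.44), with 5 apart (1.48% of all genes were) and 6 higher at an unadjusted p under 0.05 (3.39%). None was called by edgeR or DESeq2, and limma called 2 higher (1.88% of all genes were).

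Energy genes are given by pathway. Of 20 glycolysis genes 15 were positive (median 0.80), with Ldha the only call (0.0569% of all genes were called higher). Over 26 alternatives that median lay between 0.12 (limma) and 1.2 (replicate block). Gapdh, a glycolytic dehydrogenase, was at 301 to 430.2 CPM (median 380) in early HSC, against 111 to 305 CPM (median 196) in steady-state HSC (adjusted p = 0.219). Of 22 citric acid cycle genes 19 were positive (median 0.39) and none was called by edgeR. DESeq2 called 2 (0.968% of all genes were called higher) and limma 2 (1.88%), all higher. By edgeR 4 were higher at an unadjusted p under 0.05 (3.39% of all genes). Mdh2, Idh2 and Cs had all early libraries above all steady-state ones (1.48% of all genes did). Mdh2, mitochondrial malate dehydrogenase, was at 780.4 to 1099 CPM (median 933) in early HSC, against 123 to 541 CPM (median 505) in steady-state HSC (adjusted p = 0.135). Of 61 nuclear genes of oxidative phosphorylation 22 were positive (median -0.24). Atp5b rose, and Atp5a1, its partner subunit, and Cyc1, cytochrome c1, had log2 changes of 1.23 and 1.17 (adjusted p = 0.115 and 0.0757). Uqcrb, a small subunit of complex III, was at 258 to 554 CPM (median 432) in early HSC, against 429.7 to 1269 CPM (median 781.5) in steady-state HSC (adjusted p = 0.229). The median of the list is not fixed in sign: it became 0.21 with 38 genes positive once a trend of log2 change with exon length was taken out. Under that setting the medians of the glycolysis and citric acid cycle lists were 0.60 and 0.33.

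Ribosomal protein genes leaned lower by small amounts. Of 51 tested, 50 had a negative log2 change (median -0.61) and 1 fell (0.218% of all genes did). DESeq2 called 10 lower (1.97% of all genes were) and limma 1 (2.04%). By edgeR 37 had an unadjusted p under 0.05 (5.94% of all genes did on the lower side). In 3 the early libraries all lay below the steady-state ones (0.882% of all genes did). The list's median was -0.945 with 3 weeks only, -0.302 with 4 weeks only and -0.165 by limma. Rps27, the gene that fell, was at 168 to 372 CPM (median 285) in early HSC, against 381 to 1635 CPM (median 812) in steady-state HSC (log2 change -1.73, SE 0.337, adjusted p = 0.0366). Rps19, the gene affected in many cases of Diamond-Blackfan anaemia in humans, was at 607 to 1221 CPM (median 944) in early HSC, against 1230 to 3257 CPM (median 1850) in steady-state HSC, apart (adjusted p = 0.102). In library shares, the list took 2.45% to 4.52% of counts in early HSC, against 3.73% to 7.01% in steady-state HSC (exact permutation test, two-sided, p = 0.0204). These genes have many processed pseudogenes, and how shared reads were counted is not given in the sources used here.

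The log2 change also differed between classes of transcript length, although its Spearman correlation with exon length across 10535 genes was -0.00496. The median log2 change was -0.90 for 222 genes of up to 500 exon bases, -0.64 for 412 genes of 500 to 1000 bases, and -0.15 for 1240 genes of 1000 to 2000 bases. It was 0.23 for 3099 genes of 2000 to 4000 bases, 0.13 for 3762 genes of 4000 to 8000 bases and -0.27 for 1800 longer genes. With a length trend taken out of the fit, 34 genes were called, 25 of them shared with the 29, and Ldha, Lst1, Gng11 and mt-Nd6 lost their call (adjusted p = 0.0547, 0.379, 0.378 and 0.245). Under that setting the medians were -0.50 for ribosomal proteins, with 12 of 51 positive, -0.96 for mitochondrially encoded genes, with none of 10 positive, and 1.13 for replication genes, with all 46 positive. The ribosomal and mitochondrial shares of counts moved with the groups, and the part of length or RNA quality in them was not tested further.

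**Figure D4:**
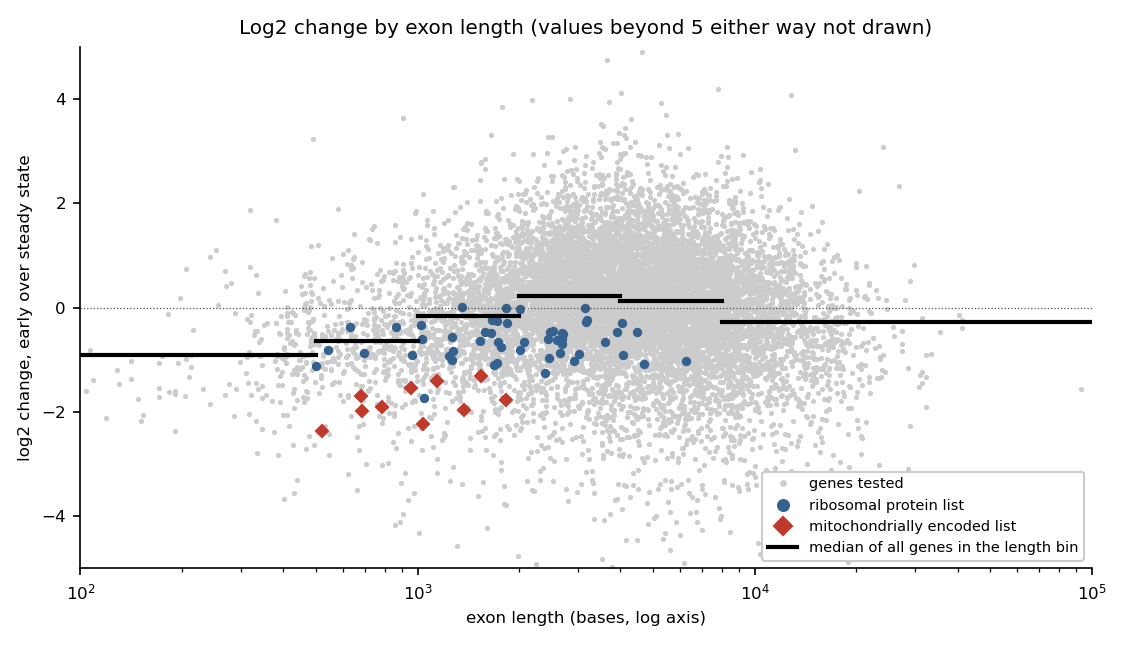
Log2 change, early over steady-state HSC, against exon length (bases, log axis) for the genes tested, with ribosomal protein and mitochondrially encoded genes marked and a bar at the median of each length bin. The bars run from -0.90 in the shortest bin to 0.23 between 2000 and 4000 bases, and the mitochondrially encoded genes lie below the bar of their bin.

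Genes tied to quiescence and to immediate stimulus leaned lower, with wide spread among steady-state libraries. Of 24 quiescence and low-cycling genes 18 were negative (median -1.11) and of 25 immediate early genes 22 (median -1.10), and no gene of either list was apart. By edgeR none was called, with 1 higher and 6 lower at an unadjusted p under 0.05 in the quiescence list and 9 lower in the immediate early list. DESeq2 called 1 higher and 1 lower and limma 4 lower of the quiescence list, and each called 3 lower of the immediate early list. Of all genes, 5.94% were lower at that unadjusted p, and DESeq2 and limma called 1.97% and 2.04% lower. Egr1, a transcription factor known to restrain HSC cycling in mice, was at 23.8 to 309.9 CPM (median 147) in early HSC, against 179 to 998 CPM (median 508) in steady-state HSC (log2 change -1.93, adjusted p = 0.164). Fos, an AP-1 subunit, was at 210.3 to 749 CPM (median 506) in early HSC, against 541 to 2638 CPM (median 734) in steady-state HSC (adjusted p = 0.225). Nr4a1, an orphan nuclear receptor, was at 0 to 6.45 CPM (median 0.926) in early HSC, against 2.48 to 464 CPM (median 19.6) in steady-state HSC (adjusted p = 0.225). For each of them some steady-state libraries lay within the early range. Ccnd3, the G1 cyclin D3 of the quiescence list, stood on the other side, at 105 to 617 CPM (median 270.4) in early HSC, against 43.8 to 165 CPM (median 110) in steady-state HSC (adjusted p = 0.191). Plk2, a kinase from a list of p53 targets of which 10 of 21 were positive, was at 0 to 13.2 CPM (median 3.66) in early HSC, against 24.9 to 239 CPM (median 91.6) in steady-state HSC, apart but not called (adjusted p = 0.164).

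Of 22 megakaryocyte and platelet genes 17 were positive (median 1.21), and 4 had all early libraries above all steady-state ones (1.48% of all genes did). None was called by edgeR, 2 were by DESeq2 (0.968% of all genes were called higher) and 8 by limma (1.88%), all higher. At an unadjusted p under 0.05 by edgeR 6 were higher (3.39% of all genes were). Pf4, platelet factor 4, was at 615 to 1484 CPM (median 1019) in early HSC, against 239.8 to 941 CPM (median 260.2) in steady-state HSC (log2 change 1.30, adjusted p = 0.172). F2r, the thrombin receptor PAR1, was at 158 to 621 CPM (median 333) in early HSC, against 0 to 127.5 CPM (median 68.1) in steady-state HSC, apart (adjusted p = 0.229). Rab27b, which directs granule release, was at 98.5 to 230.1 CPM (median 166) in early HSC, against 3.29 to 96.8 CPM (median 45.3) in steady-state HSC, apart too (adjusted p = 0.369). Gp1bb, a subunit of the von Willebrand factor receptor, was at 104 to 252 CPM (median 161) in early HSC, against 0 to 116 CPM (median 20.9) in steady-state HSC, with overlap (adjusted p = 0.337). Summed over the list the level was 3896 to 6132 CPM (median 4696) in early HSC, against 2282 to 3730 CPM (median 3079) in steady-state HSC, without overlap.

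Gata1, the transcription factor of erythroid and megakaryocyte cells, had the largest log2 change of the lineage genes named here. It was at 155 to 279 CPM (median 227) in early HSC, against 0 to 53.6 CPM (median 12.4) in steady-state HSC, yet the fit did not call it (log2 change 3.27, SE 0.995, adjusted p = 0.213). At the same weeks HPC-2 libraries had a median of 199 CPM. Of 16 erythroid genes tested, Gata1 included, 7 were positive (median -0.41, of the same sign in 22 of 26 alternatives), and Car2, carbonic anhydrase 2, was at 1986 to 3492 CPM (median 2827) in early HSC, against 2518 to 5944 CPM (median 3659) in steady-state HSC (adjusted p = 0.495). A list of 10 erythroblast genes summed to 2107 to 3756 CPM (median 3083) in early HSC, against 2541 to 6210 CPM (median 4323) in steady-state HSC, so the groups overlapped.

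Granulocyte and monocyte priming gave 1 gene in each direction, Plac8 and Cd63, among 17 tested (6 positive, median -0.56, of the same sign in 23 of 26 alternatives). Of all genes, 0.0569% rose and 0.218% fell. Prtn3, proteinase 3, was at 60.1 to 354 CPM (median 142) in early HSC, against 203 to 936 CPM (median 454) in steady-state HSC (adjusted p = 0.263), and Lyz2, lysozyme, at 551 to 1336 CPM (median 755) in early HSC, against 1034 to 1528 CPM (median 1219) in steady-state HSC (adjusted p = 0.266). All 6 tested genes of mast cells and basophils were negative (median -0.78). By edgeR 3 were lower at an unadjusted p under 0.05 (5.94% of all genes), and none was called by edgeR, DESeq2 or limma. Of 9 lymphoid genes 6 were positive (median 0.48), none called by edgeR or DESeq2 and 1 higher by limma (1.88% of all genes). By edgeR 2 were higher at an unadjusted p under 0.05 (3.39% of all genes). The sign of that median is not fixed: it was positive in 20 of 26 alternatives and was -0.18 with 3 weeks only, -0.10 with 4 weeks only and -1.16 with no filter. Of this list, Mef2c, a transcription factor of lymphoid and megakaryocyte cells, was at 203 to 502 CPM (median 378.5) in early HSC, against 96 to 387 CPM (median 164) in steady-state HSC (adjusted p = 0.268).

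Lists of markers of other cells had counts in every early library. A list of 12 neutrophil genes summed to 1.32 to 8358 CPM (median 524) in early HSC, against 0 to 7116 CPM (median 4022) in steady-state HSC, with libraries of both groups spread over the whole range. Sums of the monocyte and macrophage list were 21 to 142 CPM (median 74.8) in early HSC, against 0 to 577 CPM (median 84.7) in steady-state HSC, and of the B and plasma cell list 62.6 to 137 CPM (median 98) in early HSC, against 0 to 1831 CPM (median 76.8) in steady-state HSC. T and NK cell, dendritic, and endothelial and stromal lists summed to at most 32.9, 206 and 144 CPM in early HSC, and 35.7, 223 and 265 CPM in steady-state HSC. No gene of these lists was called by edgeR or DESeq2. By limma 1 monocyte and macrophage gene was called lower (2.04% of all genes were). Of the erythroblast list above, limma called 1 gene higher (1.88% of all genes). The part of these lists in the values above was not tested.

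The 3-week and 4-week libraries were also compared with each other, since they were pooled. No gene of 10482 was called by edgeR, where 1099 had an unadjusted p under 0.05 and DESeq2 called 634. With 3 libraries a week, 905 genes (8.63%) had all 3-week libraries above all 4-week libraries and 1140 (10.9%) all below. The genes of smallest p, none of which passed the test (adjusted p = 0.279 each, edgeR), had weeks that did not overlap. Hspa8 was at 3959 to 4565 CPM at 3 weeks and 1693 to 2448 CPM at 4 weeks (log2 change, 3 over 4 weeks, 0.98), and Mcm2, a helicase subunit, at 207 to 447 CPM at 3 weeks and 48.2 to 82.9 CPM at 4 weeks (log2 change 2.08). Pf4 was at 615 to 734 CPM at 3 weeks and 1304 to 1484 CPM at 4 weeks (log2 change -1.14). Birc5, the mitotic survivin, was at 214 to 311 CPM at 3 weeks and 469 to 623 CPM at 4 weeks (log2 change -1.19). The remaining genes were Noc2l, Ppat, Usp5 and Dtl, with higher values at 3 weeks, and Chrac1, Slc35a5, Tmbim4 and Efcab7, with higher values at 4 weeks. By list, 31 of 46 replication genes were positive, that is higher at 3 weeks (median 0.43), and 15 of 46 mitosis genes (median -0.22). All 51 ribosomal protein genes and all 10 mitochondrially encoded genes were negative (medians -0.57 and -0.62), with 50.1% of all genes positive.

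Set against HSC of weeks 5 to 16 (18 libraries), the same 6 early libraries gave 461 called genes of 11848 (3.89%), 78 higher (0.658%) and 383 lower (3.23%). Under another scaling (RLE), which moved the median log2 change of all genes to 0.23, the calls were 176 higher and 301 lower. All early libraries lay above all later ones in 20 genes (0.169%) and below them in 21 (0.177%). The early libraries are shared with the comparison above, so values are given side by side and not as a second line of evidence. The count was 184, 243 and 149 without 3-week replicates 1, 2 and 3, and 264 without 4-week replicate 1. Tfdp1 was at 355 to 652 CPM (median 546) in early HSC, against 97.7 to 394 CPM (median 170) at weeks 5 to 16 (log2 change 1.32, SE 0.232, adjusted p = 0.00251). Cdca7 was at 481 to 1088 CPM (median 602) in early HSC, against 81.9 to 578 CPM (median 205) later (log2 change 1.30, SE 0.293, adjusted p = 0.0107). Gata1 was at 155 to 279 CPM (median 227) in early HSC, against 0 to 114 CPM (median 42.1) later, and was called here (log2 change 2.11, SE 0.615, adjusted p = 0.0493). Atp5b and Ldha rose against later weeks as well (log2 changes 1.35 and 0.76, adjusted p = 0.00251 and 0.0472).

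Plac8 did not differ from later weeks beyond the test, at 174 to 1596 CPM (median 795) there (log2 change -0.53, adjusted p = 0.59), and neither did Rap1b (log2 change 0.34, adjusted p = 0.659). Means of Plac8 were 153 CPM at steady state, 643 at 3 weeks, 452 at 4, 939 at 5, 1198 at 6 and 906 at 8, 404 at 10, 391 at 13 and 509.5 at 16 weeks, so the mean of every week lay above that of steady state and the highest were at 5 to 8 weeks. Ifitm1 was at 156 to 617 CPM (median 426) in early HSC, against 548 to 2686 CPM (median 1449) at weeks 5 to 16 (log2 change -1.88, SE 0.333, adjusted p = 0.00251). Zfp36l2, Lst1, Malat1 and Pdzk1ip1 fell against later weeks too (log2 changes -1.69, -1.85, -1.44 and -0.74), and Mt-Nd4 by 2.01 on the log2 scale (adjusted p = 0.000501). Sult1a1 was not called against later weeks (log2 change -2.05, adjusted p = 0.434). Its means were 277 CPM at steady state, 30.7 at 3 weeks, 16.1 at 4, 3.74 at 5, 17.9 at 6 and 206 at 16 weeks, and the mean at 5 weeks was the lowest of these. Over all libraries of weeks 5 to 16 the mean of Sult1a1 was 94.3 CPM (median 60.8). Hlf had means of 210.1 CPM at steady state, 75.7 at 3 weeks, 32.9 at 4, 50.1 at 5 and 187 at 16 weeks. Over all libraries of weeks 5 to 16 the mean of Hlf was 91 CPM (median 81.3).

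By the naming rule, the largest rises against later weeks were in Prep, a prolyl endopeptidase, Rbck1, a ubiquitin ligase subunit, Stip1, an HSP70-HSP90 adaptor, Kpna2, a nuclear importin, Laptm5, a lysosomal membrane protein of blood cells, and Eno1, an enolase. Prep was at 45.7 to 246 CPM in early HSC, against 0 to 84.5 CPM (median 8.22) later (log2 change 2.93, SE 0.795, adjusted p = 0.0314). Kpna2 was at 425 to 817 CPM in early HSC, against 0.647 to 335 CPM (median 143) later, without overlap (log2 change 1.91, SE 0.422, adjusted p = 0.00989). Among the largest falls were Ccl4, a chemokine, Tmsb15b1, a thymosin, Tnfsf13os, BC028528 and AW112010. AW112010 was at 114 to 290.4 CPM in early HSC, against 260.5 to 1367 CPM (median 892) later (log2 change -2.34, SE 0.359, adjusted p = 0.000717). By list, 10 of 26 cytosolic chaperones rose (0.658% of all genes did in this comparison). On the lower side (3.23% of all genes), 28 of 51 ribosomal protein genes and 7 of 10 mitochondrially encoded genes fell, and among nuclear oxidative phosphorylation genes 4 rose and 26 of 61 fell. Of 45 replication genes 40 were positive (median 1.17) and 3 rose, among them Mcm6 (log2 change 1.64, adjusted p = 0.0344).

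**Figure D5:**
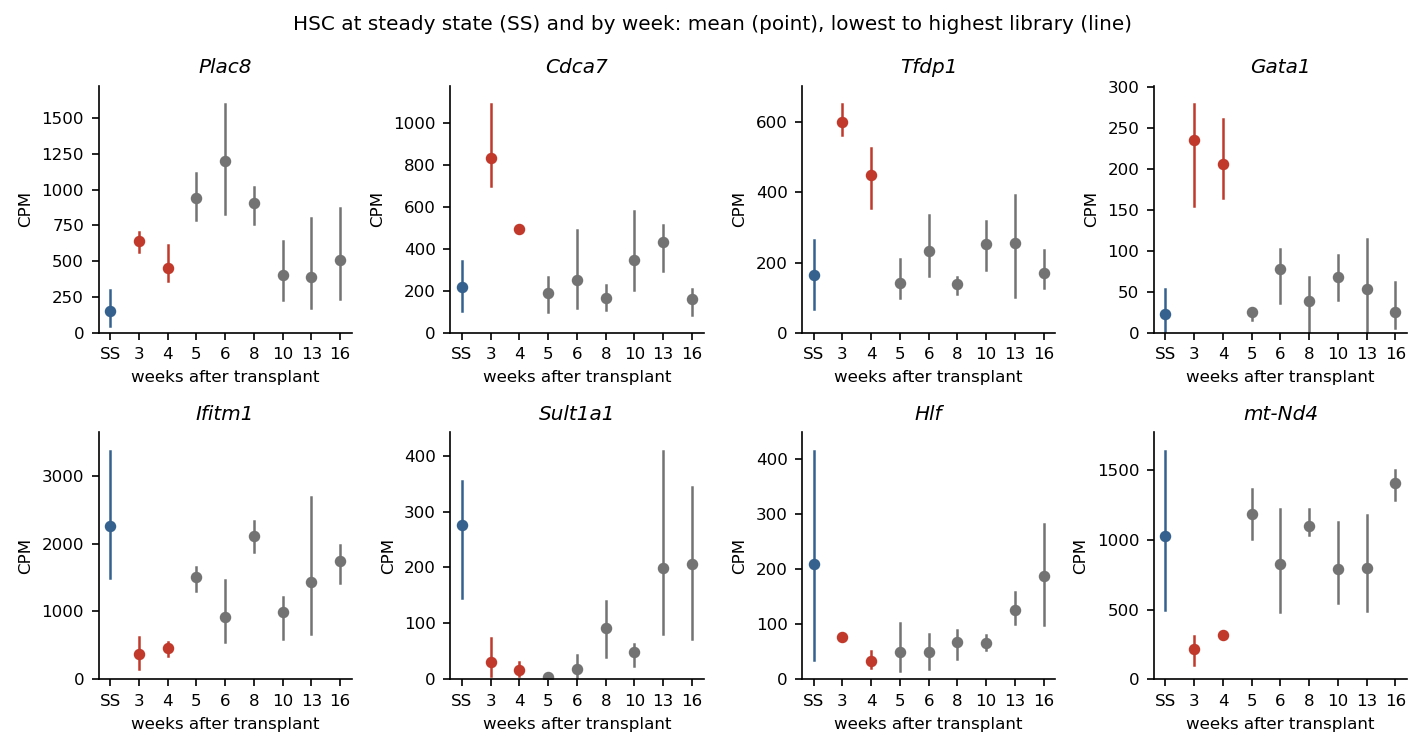
Level (CPM) of 8 genes in HSC at steady state (SS, 7 libraries) and at 3 to 16 weeks after transplant (3 libraries each), with points at the mean and lines from the lowest to the highest library. Gata1 has means of 235 and 206 CPM at 3 and 4 weeks and at most 77.9 CPM in any later week, while the mean of Sult1a1 stays under 100 CPM until 10 weeks.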

How the data were processed

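RNA was measured by bulk sequencing of sorted mouse marrow cells, amplified with SMART-Seq v4 (full-length cDNA) and made into Nextera XT libraries, per the labels' protocols. The authors deposited 1 table of raw counts of reads per gene, not normalized. The submitters' processing notes name Trimmomatic 0.36, HISAT2 2.0.5, Picard, featureCounts and the mm10 (GRCm38) build. The annotation release, the strand setting and the handling of reads shared by several genes are not given in the sources used here, so overlapping, antisense and near-identical genes are uncertain.

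Of 53465 gene entries, 3433 had no symbol. Genes were kept by edgeR 4.0.16 filterByExpr and tested with its robust quasi-likelihood F test after TMM scaling, in R 4.3.3, with Benjamini-Hochberg adjustment over all genes tested. Early HSC (3 and 4 weeks, 6 libraries) were set against steady-state HSC (7 libraries), 3 against 4 weeks, and early HSC against HSC of weeks 5 to 16. Each fit held only the libraries compared and no covariate. Levels in CPM use library totals. Single measures per library were tested with exact permutation tests over libraries, and the scripts were tested on simulated data. Exon lengths and positions came from GENCODE M21, which held 99.8% of gene IDs, and promoters from RefSeq. Of 1229 symbols in 50 gene lists, 1225 were found. A list is described by its counts and its median beside all genes tested.

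Genes named are the called genes (each averaging 10 CPM or more), up to 4 list members of smallest p and the 2 of highest level per list, the sort and marker genes, and for the other comparisons 6 per direction. Unnamed transcripts (Rik) complete the 29 calls and were chosen after their values were seen. A few genes that this rule names are not reported here. The members and lists were chosen with earlier results of these data known. Alternatives were RLE scaling, other filters, DESeq2 1.42.0, limma 3.58.1 voom with weights, other choices of libraries, single weeks, a replicate block, leaving out each library and, chosen after seeing the data, a length trend taken out. Precision was limited by 6 and 7 libraries of 4552549 to 7908388 counts.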

Additional observations from a re-analysis of the deposited data

Results flagged for a closer look

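Among 224 groups of libraries examined (genes named above, in each group), 22 (9.82%) held a library far from the others by Dixon's test at the 95% level, which chance gives in about 5% of groups. Of these 12 were in early HSC and 10 in steady-state HSC. In early HSC at 3 weeks, replicate 3 accounted for 8, replicate 2 for 3 and replicate 1 for 1. At steady state replicate 8 accounted for 5, replicate 3 for 4 and replicate 7 for 1, and replicates 3 and 8 are those with the fewest genes detected.

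In 3-week replicate 3 the mitochondrial transcripts were low. Mt-Nd4 was at 101 CPM, with 239 to 343 CPM in the other early libraries, and mt-Nd2 at 84.3 CPM, with 175 to 257 CPM in the others. The same library had 661 CPM of mt-Co1 (others 1870 to 2702) and 854 CPM of mt-Cytb (others 1964 to 2644). Its nuclear Atp5b was high, at 2148 CPM (others 948 to 1260). Myct1 was at 44.9 CPM there (others 123 to 220.1), Ramp1 at 59.1 CPM (others 200.3 to 401) and Rpl37 at 261 CPM (others 388 to 468). Without this library the comparison with steady state called 10 genes.

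In 3-week replicate 2, Kit was at 6.25 CPM (others 54.6 to 164), Cdca8 at 198 CPM (others 306 to 375) and B4galt6 at 0.133 CPM, where the other early libraries had no count. Srm was at 376 CPM in 3-week replicate 1 (others 495 to 576).

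At steady state, replicate 3 had 35.4 CPM of Hlf (others 164 to 415), 6.50 CPM of Procr (others 77.4 to 235.5), and no count of F2r (others 50.7 to 127.5) or Ctps (others 12.7 to 60.9). Replicate 8 had 154 CPM of Gpr171 (others 268 to 342), 204 CPM of Pcna (others 395 to 600) and 3.73 CPM of Cs (others 47.3 to 114). It had 0 counts of Lax1 (others 9.14 to 50.5) and 0 of Gp1bb (others 16.3 to 116). Replicate 7 had 803 CPM of Gng11 (others 416 to 534). Whether these libraries differ in cells or in RNA quality was not tested.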

How the results depend on the processing

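Early against steady-state HSC gave 29 calls. Changes over 1.5 times were 310 by DESeq2 (102 higher, 208 lower) and 413 by limma voom with weights (198 higher, 215 lower), each holding all 29, 77 without the libraries of few genes (23 shared), 46 with weeks 3 and 4 given a mean each (28 shared), and 0 with steady-state replicate 1 included, with 3 weeks only or with 4 weeks only. It was 41 under RLE scaling, 23 with no filter, 30 at a mean of at least 10 CPM, 38 with all HSC in the fit and 34 with the length trend taken out. Leaving out 1 library gave 0 to 32. Early against later HSC (461) gave 983 with no filter, 949 by DESeq2 and 149 to 572 with 1 library left out. For 3 against 4 weeks (0 calls) DESeq2 gave 634, and leaving out a library gave 0. With the replicate number as a block the counts were 0, 442 and 0. The numbers do not pair the libraries: correlations of same-numbered deviations were -0.005, 0.062 and -0.096 between weeks 3 and 4, and -0.002 and -0.038 between early and steady state. The mitochondrial share and genes detected kept their side of the threshold under each alternative run. Of 105 named genes, only B2m changed sign, to 0.036 under the length trend taken out (-0.77 otherwise). Of the list medians under alternatives, 1193 stayed within the spread of their members and 29 moved further. Calls depended on single libraries of 3 weeks, 4 weeks and steady state, and the cause was not tested. At this number of libraries a difference that was not called may still exist, and genes of low counts were left out by the filter.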

Other observations

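Of 19 immunoproteasome and MHC class I genes 15 were positive (median 0.25), with 2 higher and 1 lower at an unadjusted p under 0.05. None was called by edgeR or limma and 1, lower, by DESeq2. Of all genes, 3.39% were higher and 5.94% lower at that unadjusted p. DESeq2 called 0.968% of all genes higher and 1.97% lower, and limma 1.88% and 2.04%. B2m, the light chain of MHC class I, was at 1893 to 3257 CPM (median 2772) in early HSC, against 3267 to 6329 CPM (median 4158) in steady-state HSC, apart on the lower side (log2 change -0.77, adjusted p = 0.136, and 0.036 with the length trend taken out). H2-D1, a class I heavy chain that shares sequence with its relatives, was at 954 to 2005 CPM (median 1605) in early HSC, against 131 to 1467 CPM (median 928.5) in steady-state HSC (adjusted p = 0.382). Of 40 type I interferon genes 19 were positive (median -0.03) and of 22 interferon gamma genes 13 (median 0.13). None of either was called by edgeR or DESeq2, limma called 1 higher and 1 lower of the first and 1 lower of the second, and at an unadjusted p under 0.05 the first had 2 in each direction and the second 1 lower. Ifitm1, which fell, is in the HSC identity list. Against weeks 5 to 16, B2m fell (log2 change -1.02).

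Of 25 actin cytoskeleton genes 18 were positive (median 0.33), none called by edgeR, 3 higher by DESeq2 and 2 by limma, with 6 higher and 1 lower at an unadjusted p under 0.05. For this and the next lists, 3.39% of all genes were higher and 5.94% lower at that unadjusted p. DESeq2 called 0.968% of all genes higher and 1.97% lower, and limma 1.88% and 2.04%. Pfn1, profilin, was at 1758 to 2494 CPM (median 2083) in early HSC, against 863 to 1525 CPM (median 1160) in steady-state HSC, apart (adjusted p = 0.0749), and Cfl1, cofilin, at 1262 to 1571 CPM (median 1420) in early HSC, against 550.2 to 1263 CPM (median 774) in steady-state HSC (adjusted p = 0.172). Of 18 haem and iron genes 11 were positive (median 0.39), none called by edgeR, 1 in each direction by DESeq2, and 2 higher and 1 lower by limma, with 2 in each direction at an unadjusted p under 0.05. The ferritin chains stood on the lower side, with Ftl1 at 1132 to 2090 CPM (median 1591) in early HSC, against 2099 to 3023 CPM (median 2588) in steady-state HSC, apart (adjusted p = 0.109), and Fth1 at 1065 to 2115 CPM (median 1570) in early HSC, against 1828 to 3512 CPM (median 2336) in steady-state HSC (adjusted p = 0.221). Of 34 DNA repair genes 29 were positive (median 0.96), yet none reached an unadjusted p under 0.05 by edgeR, and the calls were 0 by DESeq2 and 1 by limma. Of 28 lysosome and autophagy genes 13 were positive (median -0.12), and Ctsl and Cd63, which fell, were the only ones called (0.218% of all genes fell).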
